A study of Mus musculus with 104 samples.

Results

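Molecular chaperones and heat shock genes were followed in mouse muscle stem cells through the day, in aged and adult mice fed a control diet or a calorie restricted one. The genes were chosen by symbol alone: the Hsp70 and Hsp110 family (Hspa and Hsph1), Hsp90, the small heat shock proteins (Hspb), the mitochondrial chaperonin (Hspd1 and Hspe1), the J proteins (Dnaja, Dnajb and Dnajc), the subunits of the CCT chaperonin, the Bag co-chaperones 1 to 6, and heat shock factors 1 and 2. Of the 17097 genes with a probe set of a single symbol, 82 matched. After probe sets of low signal were left out, 71 of these remained among 11853 genes tested, each read from its probe set of highest mean. The measured members were 13 of the Hsp70 and Hsp110 family, 2 of Hsp90, 5 small heat shock proteins, 1 mitochondrial chaperonin gene, 4 Dnaja, 9 Dnajb and 23 Dnajc genes, 8 CCT genes and 6 Bag genes. The 8 CCT genes include Cct8l1, a Cct8-like gene matched by its symbol, with a mean of 4.97. The nearest member above the limit was Dnajb13, with a mean of 4.56 on the log2 scale, and the nearest below it was Hspb9, with 4.50. Hsf1, Hspa1a, Hsp90ab1 and Hspd1 were not analysed here.

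Chaperones bind unfolded or partly folded proteins and release them in cycles driven by ATP. Hsp70 proteins receive their clients from J proteins and give up their nucleotide with the help of Bag and Hsp110 proteins, Hsp90 acts later on signalling proteins, and the ring of CCT folds actin and tubulin. In the cytosol many of these genes are driven by heat shock factor 1 through heat shock elements. Those of the endoplasmic reticulum (ER), such as Hsp90b1 (GRP94), Hspa5 (BiP) and Dnajc3 (p58IPK), are driven by the unfolded protein response through ER stress response elements.

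All mice carried Per1-Venus, a reporter of the clock gene Per1, on a C57B6/J background. The 4 arms were aged mice under calorie restriction (aged CR, 26 arrays), aged mice on the control diet (aged control, 24), adult mice under calorie restriction (adult CR, 32) and adult mice on the control diet (adult control, 22). CR mice received 30% less food than the mice fed without limit, for 25 weeks after 3 weeks in which food was cut by 10% a week. Aged mice were 55 to 69 weeks old and adult mice 19 to 29 weeks old when this adaptation started. Cells were taken at T0, T4, T8, T12, T16 and T20, zeitgeber times by the design text, with 4 to 6 arrays per arm and time, except 1 at T20 in adult control. The age tags run from 83 to 97 weeks for the aged mice and from 47 to 57 weeks for adult CR. The 22 adult control arrays bear the older tag although their titles call them adult, and groups follow the titles here. Each array was 1 hybridisation of amplified RNA, and the titles call arrays of a group biological replicates. A day's collection held 1 time point only, so differences between collection days are part of the differences between times.

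Array medians lay between 4.81 and 5.00, and no array was identical to another. No label names a sort gate. Marker genes of muscle stem cells were bright, with Sdc4 at a mean of 12.2 and Pax7 at 9.84. Markers of other cell types were present too, among them Myh11 of smooth muscle at 11.04, Gsn of fibroadipogenic progenitors at 10.9 and Pmp22 of Schwann cells at 10.8. Of the other fibroadipogenic progenitor markers, Dpt (10.8), Dcn (10.5) and Col1a1 (9.31) were bright. Pdgfra (3.77) and Lum (4.22) stayed below the limit on low signal. In RNA of a cell mixture, a lower signal from fewer cells of a type cannot be told apart from less RNA per cell.

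Promoter stretches of 6 members that hold an ER stress response element or a heat shock element are shown first, as examples of the elements by which ER and cytosolic chaperone genes are known to be driven. Hsp90b1, Dnajc3, Hspa5 and Hspb1 carry calls described below, Hspe1 and Hspa1b do not, and the windows of Bag6, Hspa12a, Hspb7 and Dnajb12, which also carry calls, held none of the patterns searched. The windows run from 250 bases before to 50 after a RefSeq transcript start (build GRCm38.p6), and 67 of the 82 members have one. Capitals mark the ER stress response element (CCAAT and CCACG with 9 bases between, either strand) in the first 3 stretches.
Hsp90b1, chr10:86705518-86705671, minus strand: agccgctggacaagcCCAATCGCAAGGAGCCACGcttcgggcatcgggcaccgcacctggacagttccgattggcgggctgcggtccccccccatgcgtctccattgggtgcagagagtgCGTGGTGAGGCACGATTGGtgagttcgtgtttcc
Dnajc3, chr14:118937812-118937860, plus strand: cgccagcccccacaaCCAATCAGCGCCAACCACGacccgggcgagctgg
Hspa5, chr2:34772010-34772058, plus strand: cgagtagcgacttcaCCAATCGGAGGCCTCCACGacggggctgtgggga
The Hsp90b1 stretch holds the element on both strands, its copies beginning at positions -212 and -107 from the transcript start. These 3 genes were the only members with the element, against 37 of all 27025 genes with a window (0.137%).

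In the next 3 stretches capitals mark heat shock elements, with 3 units (GAANNTTC, then 2 bases and GAA, either strand, 2 overlapping matches) in Hspe1 and with 2 units (GAANNTTC) in Hspa1b and Hspb1. Each match of 3 units also holds one of 2 units.
Hspe1, chr1:55088044-55088091, plus strand: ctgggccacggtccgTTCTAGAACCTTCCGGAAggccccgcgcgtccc
Hspa1b, chr17:34959320-34959357, minus strand: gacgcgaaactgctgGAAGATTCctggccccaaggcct
Hspb1, chr5:135887787-135887844, plus strand: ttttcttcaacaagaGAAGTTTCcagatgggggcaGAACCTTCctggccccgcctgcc
The element of 3 units was found in Dnajb6, Hspe1 and Hsph1, against 0.662% of all genes, and that of 2 units in 14 of the 67 members, against 9.04%. In Hsph1 and Bag3 the matches lay after the transcript start. The other 3 patterns searched were the second order of 2 units (TTCNNGAA, 7 members, against 9.6% of genes), the E-box CACGTG (6 members, 8.09%) and the D-box TTATGTAA (0 members, 1.11%). A match is a run of letters, and binding was not measured.

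A few chaperones were lower under calorie restriction at each age, and none was higher past the threshold. In aged mice 5 of 71 members were lower under CR and 0 were higher at an adjusted p under 5% in limma's fit of all arrays, against 1.09% of all genes lower, 1.21% higher and 2.29% either way. These were the ER J protein Dnajc3, the small heat shock protein Hspb1, the co-chaperone Bag3, the Hsp70 relative Hspa13 of the microsomal membrane, and the Hsp110 gene Hsph1. In adult mice Dnajc3 and the ER Hsp90 gene Hsp90b1 were lower (2 of 71, against 0.498% of all genes), and 0 members were higher (0.548%, or 1.05% either way).

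Markers of fibroadipogenic progenitors moved with both diet comparisons. Their score is the mean of the 4 of 7 markers above the limit on low signal, which leaves out Pdgfra and Lum. It was 10.26 ± 0.13 in aged CR against 10.44 ± 0.24 in aged control arrays, and 10.30 ± 0.22 in adult CR against 10.49 ± 0.26 in adult control arrays (SD, n = 26, 24, 32 and 22). The score ran from 9.99 to 10.60 in aged CR, 9.91 to 10.82 in aged control, 9.79 to 10.60 in adult CR and 10.00 to 10.99 in adult control. Of its markers, Dpt (-0.24 ± 0.06, SE; limma adjusted p = 0.016) and Gsn (-0.18 ± 0.05, 0.023) were lower in adult CR than in adult control, and none was called in aged mice. When this score was added to the fit, a step taken with the data in view, 1 of the 7 diet calls passed, that of Dnajc3 in aged mice (-0.32, adjusted p = 0.027). The aged differences were then -0.27 for Bag3 (adjusted p = 0.13), -0.32 for Hspa13 (0.054), -0.20 for Hspb1 (0.095) and -0.34 for Hsph1 (0.077), and the adult ones -0.25 for Dnajc3 (0.16) and -0.16 for Hsp90b1 (0.088). In aged CR against aged control cells, the macrophage marker Cd68 was higher by 0.38 ± 0.09, while Csf1r and C1qa, the other 2 above the limit on low signal, differed by -0.04 ± 0.04 each. Adgre1, Lyz2 and Mrc1 lay below that limit, at means of 4.07, 3.91 and 3.76. The lymphocyte marker Cd79a, the single one of 5 above that limit, was higher by 0.30 ± 0.08 in aged CR, and in adult CR it differed by 0.29 ± 0.08 (limma adjusted p = 0.053). The lymphocyte markers Cd3e, Ms4a1 and Cd3g lay below the limit in every arm, at means of 3.81, 3.69 and 4.26. The part of these markers in the result was not tested.

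Pericyte and smooth muscle markers differed with diet in both directions, none of the 5 past the threshold. Rgs5 differed by -0.44 ± 0.15 in aged and -0.36 ± 0.15 in adult mice (SE), and Pdgfrb by -0.31 ± 0.11 and -0.34 ± 0.11. Acta2 differed by 0.29 ± 0.09 and 0.27 ± 0.09, and Myh11 by 0.37 ± 0.13 and 0.18 ± 0.13. Their mean was 10.01 ± 0.21 in aged CR against 9.99 ± 0.28 in aged control arrays, and 9.73 ± 0.31 in adult CR against 9.79 ± 0.25 in adult control arrays (SD), and with it as a covariate all 7 diet calls passed. The mean of Schwann cell markers, 5 of 7 measured, was 9.05 ± 0.33 in aged CR against 9.24 ± 0.35 in aged control arrays (SD). In adult CR it was 8.77 ± 0.41, against 8.89 ± 0.45 in adult control. With this Schwann cell score as a covariate, the call of Hspa13 in aged mice was lost (-0.29, adjusted p = 0.069). That of Dnajc3 in adult mice was lost too (-0.27, 0.073). The part of Schwann cells in these results was not tested.

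Dnajc3, which delivers clients to Hspa5 and restrains the kinase PERK, was called at both ages. Its log2 signal had a lowest, median and highest value of 7.51, 8.07 and 8.82 in aged CR arrays, against 8.03, 8.45 and 8.97 in aged control arrays. In adult CR arrays the same values were 7.69, 8.27 and 8.73, against 8.19, 8.59 and 9.05 in adult control arrays. The arms overlapped at both ages, and the lowest, median and highest array of each CR arm was below that of its control arm. Day means differed by -0.35 ± 0.08 in aged mice (SE; 1.28-fold lower under CR, limma adjusted p = 0.0057) and by -0.29 ± 0.08 in adult mice (1.22-fold lower, limma adjusted p = 0.049). The aged difference passed the threshold in each of 9 omissions of a replicate number, with adjusted p of 0.0043 to 0.045, while the adult one was lost in 9 of 11, with adjusted p of up to 0.17. Without the T20 arrays the adult difference was -0.30 with an adjusted p of 0.073. The other 4 probe sets of Dnajc3 were lower under CR in both comparisons, by -0.40 to -0.03 in aged and -0.49 to -0.12 in adult mice, and none of them passed the threshold.

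Hsp90b1, the ER Hsp90, had values of 9.78, 10.00 and 10.63 in aged CR arrays, against 9.80, 10.23 and 10.43 in aged control arrays (lowest, median and highest). Adult CR arrays had 9.74, 10.02 and 10.49, against 10.02, 10.25 and 10.47 in adult control arrays. At both ages the CR arm held the lowest and the highest array, and its median was lower. The difference of day means was -0.18 ± 0.04 in adult mice (1.13-fold lower under CR, limma adjusted p = 0.019) and -0.13 ± 0.04 in aged mice (limma adjusted p = 0.096). Without adult control replicate 2 the adult difference was -0.14 with an adjusted p of 0.14. It passed in the other 10 omissions. Hspa5, the ER Hsp70, was at 8.81 ± 0.24 in aged CR against 8.85 ± 0.31 in aged control, and at 8.94 ± 0.24 in adult CR against 8.97 ± 0.17 in adult control (SD, n = 26, 24, 32 and 22). Its diet differences were -0.04 ± 0.06 in aged mice (SE; limma adjusted p = 0.82) and -0.02 ± 0.06 in adult mice (0.94).

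Hspa13 had 6.12, 7.10 and 7.91 in aged CR arrays, against 6.71, 7.45 and 8.29 in aged control arrays. The difference was -0.32 ± 0.09 (SE; 1.25-fold lower, limma adjusted p = 0.027). In adult mice it was -0.25 ± 0.09 with an adjusted p of 0.15. The other 3 probe sets of Hspa13 gave -0.15 to -0.06 in aged mice, with adjusted p of 0.29 to 0.73. Its aged call was lost in 6 of 9 omissions of a replicate number (adjusted p of up to 0.1) and without T20 (0.098). It was also lost in a fit of the aged arms alone (0.068) and with the Schwann cell score as a covariate (0.069).

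Among the heat shock genes of the cytosol, Hspb1 (Hsp27), which holds unfolded proteins in solution and binds actin, had 10.67, 11.18 and 11.65 in aged CR arrays, against 10.92, 11.43 and 11.90 in aged control arrays. The arms overlapped, and all 3 values were lower in aged CR. The difference was -0.24 ± 0.06 (SE; 1.18-fold lower, limma adjusted p = 0.02), and its other 3 probe sets gave -0.23 to -0.20 with adjusted p of 0.091 to 0.12. In adult mice the difference was -0.20 ± 0.06 with an adjusted p of 0.086. The aged call was lost without aged CR replicate 3 (adjusted p = 0.079), without aged control replicate 3 (0.071) or 4 (0.13), and without T20 (0.099).

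Hsph1, an Hsp110 that exchanges the nucleotide of Hsp70, had 9.03, 9.77 and 10.56 in aged CR arrays, against 9.54, 9.99 and 10.72 in aged control arrays. Its difference was -0.34 ± 0.10 (SE; 1.27-fold lower, limma adjusted p = 0.038). This call was lost in 6 of 9 omissions, with adjusted p of up to 0.15, and without T20 (0.082). The adult difference was -0.14 ± 0.10.

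Bag3, which links Hsp70 and small heat shock proteins to autophagy of damaged muscle proteins, had 7.48, 8.02 and 8.32 in aged CR arrays, against 7.73, 8.28 and 9.29 in aged control arrays. Adult CR arrays had 7.35, 8.34 and 9.09, against 7.76, 8.31 and 8.84 in adult control arrays. No aged CR array came above 8.32, below the highest array of each other arm. The aged diet difference was -0.35 ± 0.09 (SE; 1.27-fold lower, limma adjusted p = 0.021), and the adult one was -0.12 ± 0.09. The aged call was lost without aged CR replicate 3 (adjusted p = 0.079) or 4 (0.065), without aged control replicate 2 (0.053) or 4 (0.11), and with array weights (0.059).

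Other members of the heat shock group did not pass at either age. Hspa1b, the inducible Hsp70, had 10.28, 11.24 and 11.55 in aged CR arrays, against 10.73, 11.37 and 11.72 in aged control arrays, a difference of -0.17 ± 0.07 (SE; limma adjusted p = 0.17). Its sequence is nearly identical to that of Hspa1a, so the probe set may read both. Dnajb1, the main J protein of the heat shock response, differed by -0.19 ± 0.08 in aged and -0.05 ± 0.08 in adult mice. Hspa8, the constitutive Hsp70, differed by -0.02 ± 0.02 and -0.03 ± 0.02, and Hsp90aa1, the inducible cytosolic Hsp90, by 0.03 ± 0.06 and -0.04 ± 0.06. Hspe1, the lid of the mitochondrial chaperonin, differed by -0.15 ± 0.09 and -0.01 ± 0.09, and Hspa9 (mortalin), the mitochondrial Hsp70, by 0.01 ± 0.06 and less than 0.01. The largest estimated diet differences of all members belonged to Dnaja4, a J protein named here after its values were seen, at -0.39 ± 0.13 in aged mice (limma adjusted p = 0.096) and -0.42 ± 0.13 in adult mice (0.095), neither of them past the threshold.

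**Figure D1:**
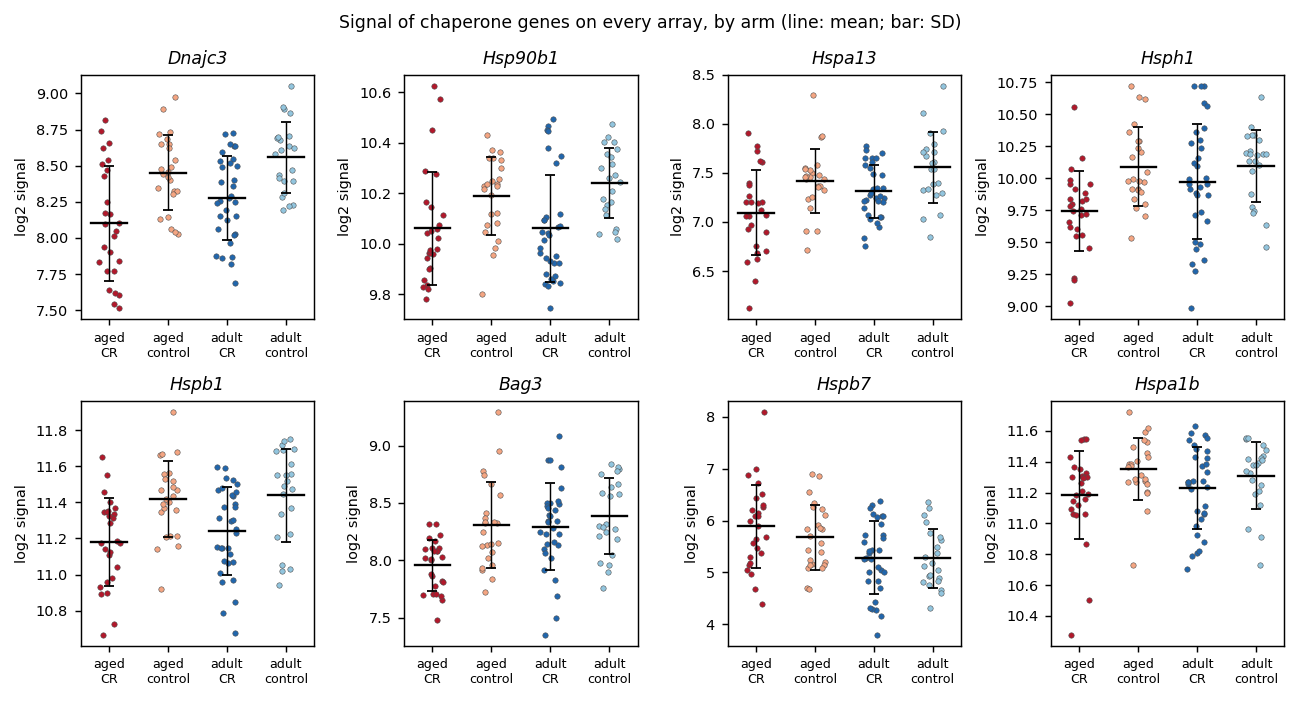
Log2 signal of 8 chaperone genes on every array (y axis of each panel), by arm; points are arrays, the line is the mean and the bar the SD (n = 26 aged CR, 24 aged control, 32 adult CR and 22 adult control). Bag3 stays at or below 8.32 on every aged CR array, and all arms overlap for every gene shown.

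By class the diet differences were small, and they lay below 0 more often than those of all genes. In aged mice 42 of 71 members were lower under CR (59.2%, with a median difference of -0.03), against 50.8% of all genes with a median at 0.00. In adult mice 46 of 71 were lower (64.8%, median -0.02), against 46.9% of all genes (median 0.01). The Hsp70 and Hsp110 class had 9 of 13 members lower at each age, with medians of -0.08 and -0.09. Of the CCT genes, Cct8l1 included, 5 of 8 were lower in aged mice (median -0.02) and 1 of 8 in adult mice (median 0.05). Of the Dnajb genes 3 of 9 were lower in aged mice (median 0.04) and 7 of 9 in adult mice (median -0.02). The diet comparisons of the 2 ages share no array, and 31 of 71 members were lower in both (43.7%), against 28.2% of all genes. These are counts over genes that move together across arrays, given as a description.

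**Figure D2:**
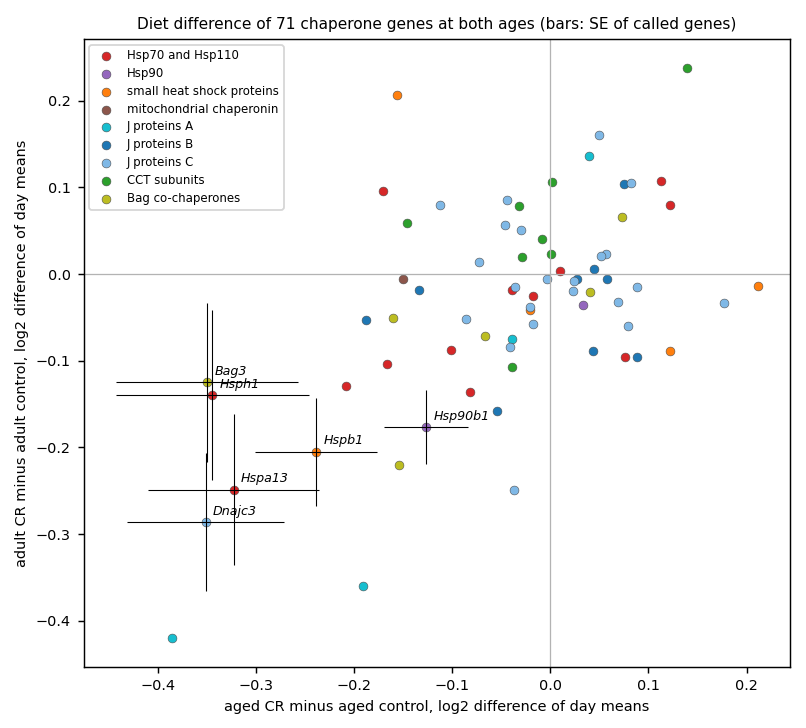
Log2 difference of day means between CR and control for the 71 measured members, in aged mice (x axis) and adult mice (y axis); each point is a gene, coloured by class, and bars are SE for genes called in either comparison. The 6 called genes lie in the lower left, where both differences are negative, and Dnajc3 was the member called at both ages.

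No member showed a diet difference that differed between ages. The interaction of diet and age called 0 of 71 members and 0% of all genes by limma. At an unadjusted p under 5% it had 3 of 71 members, against 7.66% of all genes. Between aged control and adult control 0 members were called by limma, against 0.422% of all genes. There 5 of 71 members had an unadjusted p under 5%, against 10.3% of all genes. For Hsph1 and Bag3, called in aged mice only, the interaction was -0.20 ± 0.14 (SE; limma adjusted p = 0.76) and -0.22 ± 0.13 (0.71).

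Between aged CR and adult CR mice 2 of 71 members were called (1.94% of all genes), 1 higher (1.48%) and 1 lower (0.456%). Bag3 was 1.26-fold lower in aged CR cells (-0.34 ± 0.09, SE; limma adjusted p = 0.019), and the call was lost without aged CR replicate 3 (adjusted p = 0.082) or 4 (0.053) and without adult CR replicate 3 (0.09) or 5 (0.093). Hspb7, a small heat shock protein of heart and skeletal muscle that binds filamin, was 1.53-fold higher, by 0.61 ± 0.15 (limma adjusted p = 0.012). It had 4.40, 5.94 and 8.09 in aged CR arrays, against 3.80, 5.32 and 6.38 in adult CR arrays, so that the ranges overlapped and the top of the aged CR arm stood apart. The difference passed in all 11 omissions of a replicate number. Its other probe set above the limit on low signal gave 0.21 with an adjusted p of 0.24. Markers of pericytes and smooth muscle moved with this comparison: Myh11 was higher by 0.48 ± 0.12 and Acta2 by 0.31 ± 0.09 in aged CR cells. The mean over the 5 of 7 such markers measured ran from 9.50 to 10.50 in aged CR arrays and from 8.63 to 10.23 in adult CR arrays. With that score as a covariate, Hspb7 differed by 0.43 with an adjusted p of 0.22, and Bag3 by -0.37 with 0.053. The Schwann cell score also moved, at 9.05 ± 0.33 in aged CR against 8.77 ± 0.41 in adult CR arrays (SD, n = 26 and 32), and with it as a covariate Hspb7 differed by 0.56 with an adjusted p of 0.063.

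Daily rhythms were called for 17 of 71 members in aged CR cells (23.9%, against 16.5% of all genes), 9 in aged control (12.7%, against 10.8%), 13 in adult CR (18.3%, against 22.4%) and 4 in adult control (5.63%, against 10.6%). A rhythm was called where a 24 h cosine passed limma's F test at an adjusted p under 5%. Its amplitude is the height of the fitted peak above the mean of the day, on the log2 scale. Without 1 replicate number of the arm these counts were 12 to 14 in aged CR, 1 to 5 in aged control, 10 to 14 in adult CR and 0 to 4 in adult control, and fits of each control arm alone gave 3 in aged control and 2 in adult control. By number of arms, 39 members were rhythmic in no arm (54.9%), 23 in 1 (32.4%), 8 in 2 (11.3%), 0 in 3 and 1 in 4 (1.41%). Among all genes the shares were 61.8%, 23.5%, 9.4%, 3.53% and 1.83% in the same order. Of the 28 rhythm calls of members with several probe sets, 6 had another probe set called as well.

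In aged CR cells 9 of the 17 rhythmic members peaked between T18 and T24 (52.9%, against 33.1% of all rhythmic genes of the arm). They were Hsp90b1, Hsp90aa1, Bag6, Hspb1, Hspa13, Hspa5, Dnajc3, Dnajb5 and Dnajc14, from both the ER and the cytosol. In aged control cells 1 of 9 peaked there (Hspb3), which is 11.1%, against 35.7% of all rhythmic genes of that arm. In adult CR it was 4 of 13 (30.8%, against 26.9%) and in adult control 1 of 4 (25%, against 24.6%). Of the 9 aged CR genes, Hsp90b1, Hspb1, Dnajc3, Dnajb5 and Dnajc14 lost their call without the T20 arrays (limma adjusted p of 0.055 to 0.16). Hspa13 lost its call in 3 of 5 omissions, in a fit of the arm alone (0.13) and with the mean of its probe sets (0.27). Hspb1 peaked at the edge of these hours, and the hour of Dnajb5 depended on the probe set. The genes called in aged CR but not in aged control are not thereby shown to differ, since the test of the rhythm difference between aged CR and aged control called 1 of 71 members (0.388% of all genes), Hsp90b1. The rhythm difference called 0 members between adult CR and adult control (0.0253% of all genes), 0 between aged CR and adult CR (0.00844%) and 0 between aged control and adult control (0%) by limma. At an unadjusted p under 5% these 3 comparisons had 3, 6 and 2 of 71 members, against 6.45%, 9.86% and 4.04% of all genes. Between aged CR and aged control it was 13 of 71 members, against 13.8% of all genes.

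**Figure D3:**
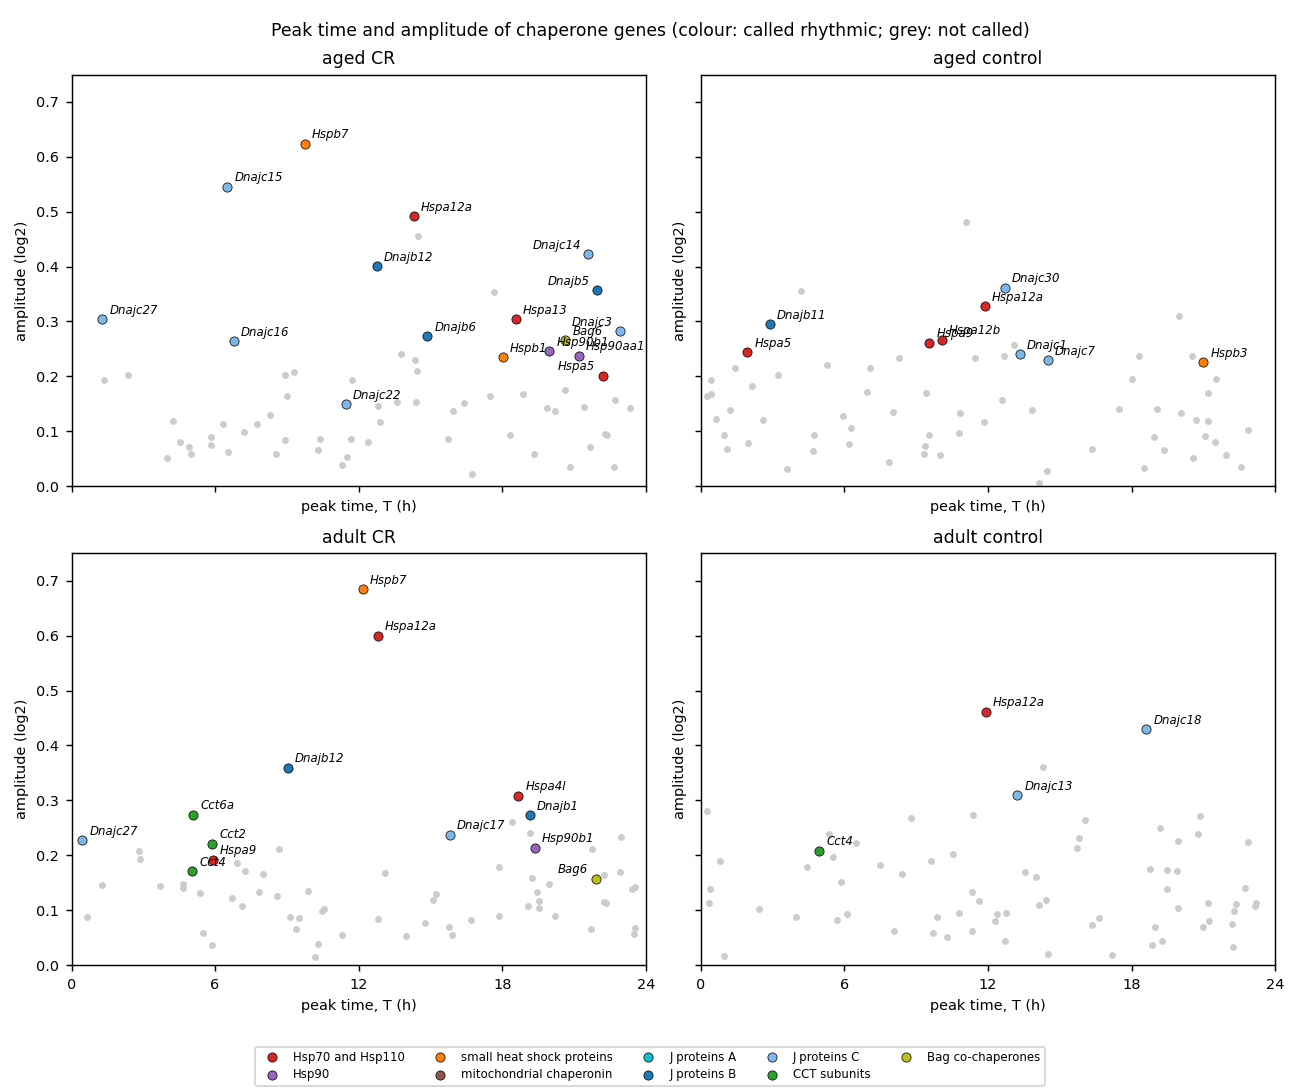
Peak time (x axis, hours) and amplitude (y axis, log2) of the fitted 24 h curve for the 71 measured members in each arm; coloured and named points passed the rhythm test, coloured by class, and grey points did not. In aged CR cells 9 of 17 named genes lie between 18 and 24 h, some of them called only with the T20 arrays included. In adult CR cells the 3 CCT genes lie near 5 h.

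The Hsp90b1 signal was highest at T20 under CR at both ages. In aged CR cells its means from T0 to T20 were 10.06, 10.00, 9.84, 9.93, 10.09 and 10.48, against 10.33, 10.23, 10.25, 10.11, 10.02 and 10.19 in aged control cells. In adult CR cells they were 10.06, 9.89, 9.98, 9.94, 10.13 and 10.42, against 10.28, 10.20, 10.31, 10.13 and 10.27 in adult control cells up to T16 and 10.30 on the single T20 array. All 4 aged CR arrays at T20 (10.28 to 10.63) were above all 4 aged control arrays at T20 (10.05 to 10.25), while from T0 to T12 the means of the CR arms were the lower ones. The fitted peak was at 19.97 ± 0.64 h with an amplitude of 0.25 ± 0.04 in aged CR (SE; limma adjusted p = 9.8e-05) and at 19.4 ± 0.7 h with 0.21 ± 0.04 in adult CR (9.4e-05). In aged control the curve peaked at 2.61 ± 1.38 h with 0.12 ± 0.04 (limma adjusted p = 0.12), and in adult control the amplitude was 0.03 ± 0.05 (0.87). The rhythm of Hsp90b1 differed between aged CR and aged control with a limma adjusted p of 0.025. That between adult CR and adult control did not pass (0.64, unadjusted p = 0.013).

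The Hsp90b1 rhythms passed in every omission of a replicate number, but they rest on the last time point: without T20 the adjusted p was 0.12 in aged CR and 0.11 in adult CR, and 0.31 for the difference in aged mice. The difference was also lost without aged CR replicate 2 (adjusted p = 0.1), 3 (0.061) or 4 (0.083), without aged control replicate 1 (0.15) or 3 (0.079), with the mean of the gene's probe sets (0.066), in a fit of the aged arms alone (0.057) and after quantile normalization (0.055). Its other probe set was rhythmic in both CR arms as well (adjusted p = 0.019 in aged and 0.0014 in adult CR), with an adjusted p of 0.23 for the difference.

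The other members with an ER stress response element were called in aged mice only. Hspa5 peaked at 22.2 ± 1.2 h in aged CR (amplitude 0.20 ± 0.06, SE; limma adjusted p = 0.033) and at 1.93 ± 0.99 h in aged control (0.24 ± 0.06, 0.018), and its adjusted p was 0.13 in adult CR and 0.47 in adult control. Dnajc3 peaked at 22.9 ± 1.1 h in aged CR (0.28 ± 0.08, 0.017) and passed in no other arm. The Dnajc3 rhythm was lost without aged CR replicate 3 (adjusted p = 0.14) or 5 (0.066), without T20 (0.092), with the mean of its probe sets (0.45), in a fit of the arm alone (0.081) and with array weights (0.051). The aged CR rhythm of Hspa5 was lost in 3 of 5 omissions (up to 0.25) and its aged control rhythm in 2 of 4 (up to 0.15). Its aged CR call was also lost with the mean of its probe sets (0.091), time as 6 levels (0.075) and the Schwann cell score (0.09). Its aged control call was also lost in a fit of the arm alone (0.09) and with the Schwann cell score (0.058). Among all 18 measured genes with the element, 7 were rhythmic in aged CR (5 of them with a peak from T18 to T24), 1 in aged control, 4 in adult CR and 2 in adult control. Without the 3 members these were 4 of 15 in aged CR (26.7%, against 16.5% of all genes), 0 in aged control (0%, against 10.8%), 3 in adult CR (20%, against 22.4%) and 2 in adult control (13.3%, against 10.6%). These genes were counted after the members' results were seen. The ER J protein Dnajb11, a partner of Hspa5, peaked at 2.87 ± 1.04 h in aged control (limma adjusted p = 0.026) and was called in no other arm, with 2 of 4 omissions losing the call (up to 0.23).

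Some cytosolic heat shock genes also peaked between T18 and T24. Hsp90aa1 peaked at 21.2 ± 0.9 h with an amplitude of 0.24 ± 0.06 in aged CR (SE; limma adjusted p = 0.0054), and Hspb1 at 18.03 ± 0.96 h with 0.24 ± 0.06 (0.018). The call of Hsp90aa1 was lost without aged CR replicate 3 (adjusted p = 0.064), and that of Hspb1 without aged CR replicate 2 (0.075) or 4 (0.087), without T20 (0.055) and with the mean of its probe sets (0.081). Dnajb1 was called in adult CR only, at 19.2 ± 1.0 h with 0.27 ± 0.07 (0.0088). That call held in every setting and omission run, while the other probe set had an adjusted p of 0.18. The Dnajb1 curve of adult control, though not called, had an amplitude of 0.25. Its peaks in adult CR and adult control (CR minus control) differed by -0.04 ± 1.53 h (SE). In the aged arms its amplitude was 0.14 under CR and 0.19 on the control diet. Hspa1b, Hsph1, Hspa8, Bag3 and Hspe1 were called in no arm. Bag6, which guards membrane proteins on their way to the ER, was rhythmic in both CR arms: its amplitude was 0.27 ± 0.04 with a peak at 20.6 ± 0.6 h in aged CR and 0.16 ± 0.04 with a peak at 21.9 ± 0.8 h in adult CR (limma adjusted p = 2.0e-06 and 0.0021), and both calls held in every setting and omission run, as did those of Dnajb12.

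Hspa12a, a distant Hsp70 relative, was the member rhythmic in all 4 arms. Its means from T0 to T20 were 7.02, 7.15, 7.45, 7.92, 7.93 and 7.63 in aged CR, against 7.14, 7.57, 7.74, 7.85, 7.82 and 7.44 in aged control. They were 6.63, 6.95, 7.50, 7.85, 7.73 and 7.17 in adult CR, against 6.98, 7.22, 7.69, 7.87 and 7.69 in adult control up to T16 and 7.14 on its single T20 array. In each arm the lowest mean was at T0 and the highest at T12 or T16. The amplitude was 0.49 ± 0.09 in aged CR, 0.33 ± 0.09 in aged control, 0.60 ± 0.08 in adult CR and 0.46 ± 0.10 in adult control (SE), with peaks at 14.3, 11.9, 12.8 and 11.9 h. The aged control call (limma adjusted p = 0.03) was lost in all 4 omissions, with adjusted p of 0.053 to 0.17, and the adult control call (0.0015) without adult control replicate 2 (0.073). Markers of Schwann cells were rhythmic in the same arms, 4 of 5 measured in aged CR, 3 in aged control, 5 in adult CR and 4 in adult control, with Sox10 peaking at 12.5 h in aged CR, 13.6 h in aged control, 12.2 h in adult CR and 13.7 h in adult control. With the Schwann cell score as a covariate Hspa12a had an adjusted p of 0.41 in aged control and 0.28 in adult control, and both CR calls held. The other 3 probe sets of Hspa12a were called in no arm, with adjusted p of 0.069 or more, and with the mean of its probe sets the adult CR rhythm had an adjusted p of 0.098.

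Hspb7 was called rhythmic in both CR arms. Its means from T0 to T20 were 5.38, 5.63, 7.12, 5.78, 6.36 and 5.19 in aged CR, and 4.41, 5.08, 5.58, 5.79, 5.87 and 4.94 in adult CR. In aged control, which was not called, the lowest mean was 5.07 at T0 and the highest 6.10 at T12. In adult control, not called either, means up to T16 lay between 4.78 and 6.05. In both CR arms the lowest means were at T0 and T20, with a single high time point, T8, in aged CR. The amplitude was 0.62 ± 0.15 with a peak at 9.75 ± 0.97 h in aged CR (SE; limma adjusted p = 0.0079) and 0.68 ± 0.14 with a peak at 12.2 ± 0.8 h in adult CR (0.00057). The other probe set was called in both CR arms as well (adjusted p = 0.0056 and 0.0064). By the probe set used, the amplitude on the control diet was 0.48 in aged and 0.36 in adult mice. Peaks, CR minus control, differed by -1.31 ± 1.60 h in aged and -2.13 ± 2.15 h in adult mice (SE). No rhythm difference between the diets was called for Hspb7. The aged CR call was lost without T20 (0.079), with array weights (0.051) and without aged CR replicate 3 (0.054), and the adult CR call held in every setting and omission run.

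**Figure D4:**
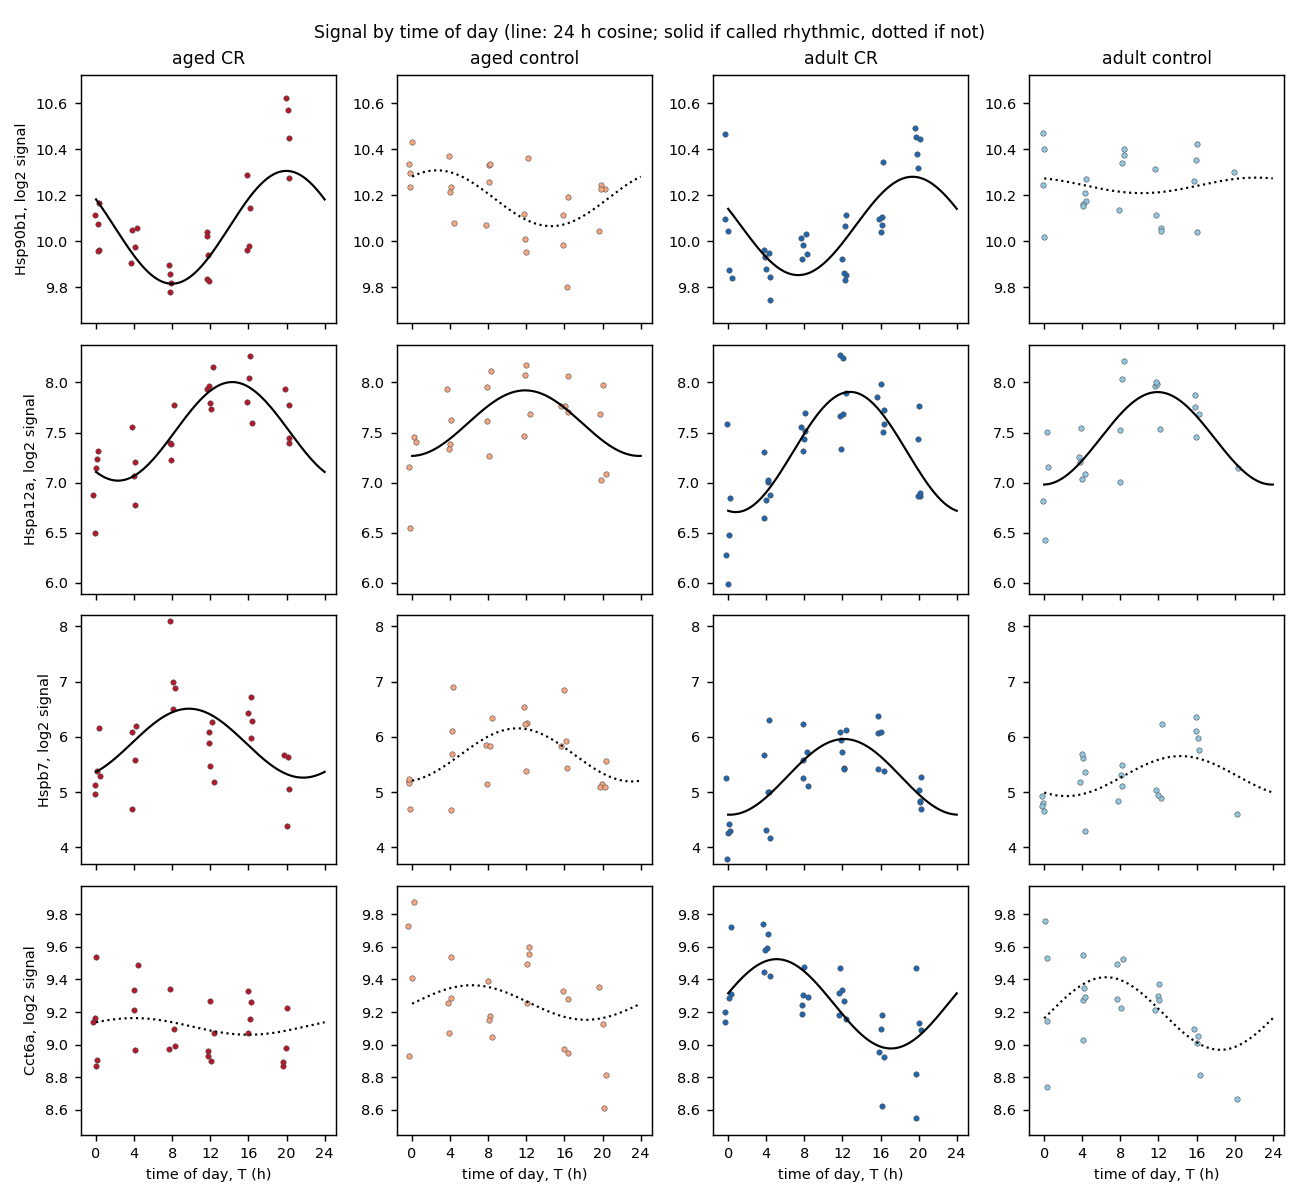
Log2 signal (y axis) by time of day (x axis, hours) for Hsp90b1, Hspa12a, Hspb7 and Cct6a, with 1 column of panels per arm; points are arrays and lines are 24 h cosines, solid where called rhythmic and dotted where not. Hsp90b1 rises at T20 in both CR arms, Hspa12a is low at T0 in all arms, and Cct6a is called in adult CR alone.

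Rhythmic CCT genes peaked near T5 and were called in the adult arms. In adult CR, Cct6a peaked at 5.09 ± 0.82 h (amplitude 0.27 ± 0.06, SE; limma adjusted p = 0.0014), Cct2 at 5.89 ± 1.01 h (0.22 ± 0.06, 0.012) and Cct4 at 5.04 ± 1.05 h (0.17 ± 0.05, 0.015), 3 of 8 measured CCT genes. In adult control Cct4 peaked at 4.93 ± 1.09 h (0.21 ± 0.06, 0.025; lost in 2 of 5 omissions, up to 0.2), and in the aged arms 0 of 8 were called. Tcp1, the remaining subunit of the ring and not among the members, peaked at 4.77 ± 0.70 h in adult CR (limma adjusted p = 0.00011). Cct6a had means from T0 to T20 of 9.33, 9.58, 9.30, 9.29, 8.96 and 9.01 in adult CR. In aged CR, where it was not called, its means lay between 8.99 and 9.25. The rhythm of Cct6a in aged CR against adult CR had a limma adjusted p of 0.50, so a difference between the ages did not pass. Cct6a held in every setting and omission run. Cct2 and Cct4 were each lost in 3 of 6 omissions, with adjusted p of up to 0.12 and 0.13, and without T20, and both other probe sets of Cct2 were called. The other probe set of Cct4 was not called (limma adjusted p = 0.73 in adult CR and 0.27 in adult control). With the mean of its probe sets both Cct4 calls were lost (0.64 and 0.34), as they were with time as 6 levels (0.052 and 0.12). Hspa9, the mitochondrial Hsp70, peaked at 5.89 ± 1.13 h in adult CR (0.03) and at 9.54 ± 0.96 h in aged control (0.014), and its other 2 probe sets were not called in these arms. These calls were lost in 4 of 6 and 2 of 4 omissions.

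Rhythmic J proteins had no common hour. Dnajb12, an ER membrane J protein that takes part in the disposal of misfolded membrane proteins, peaked at 12.8 ± 0.9 h in aged CR (amplitude 0.40 ± 0.08, SE; limma adjusted p = 0.0016) and at 9.04 ± 0.83 h in adult CR (0.36 ± 0.08, 0.002), and held in every setting and omission run, although its other probe set was not called. Dnajc27, a Rab-like J protein, peaked at 1.29 ± 0.87 h in aged CR and at 0.45 ± 1.03 h in adult CR. Dnajc15, of the inner mitochondrial membrane, peaked at 6.5 ± 0.8 h in aged CR with an amplitude of 0.55 ± 0.12 (0.0035), a call lost without T20 (0.074) and without aged CR replicate 1 (0.11). Dnajb5 peaked at 22.0 ± 1.0 h in aged CR by the probe set used and at 12.1 h by another called probe set, so its hour depended on the probe set. In adult control Dnajc13 peaked at 13.2 ± 1.1 h and Dnajc18 at 18.6 ± 1.0 h, calls lost in 1 and 3 of 5 omissions. The Dnaja class had 0 of 4 members rhythmic in any arm.

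Between animals of the same arm and time, a group of heat shock genes moved together. Deviations of 103 arrays from the mean of their arm and time were compared over 2485 pairs of members, whose median correlation was 0.04. Of these, 16 pairs had a Pearson r of at least 0.5, a level chosen after the values were seen. The highest were Hspa1b with Hsph1 (r = 0.74, Spearman's rho = 0.71) and Dnajb1 with Hsph1 (0.74, rho = 0.71), then Hspb1 with Hsph1 (0.69) and with Dnajb1 (0.69), and Hspa1b with Hspb1 (0.63). Hspa1b with Hsph1 gave 0.75 in aged CR, 0.75 in aged control, 0.77 in adult CR and 0.75 in adult control, and 0.73 without the 2 farthest arrays. Dnaja1 with Hsp90aa1 (0.60) and Hspa1b with Hspa8 (0.59) were further such pairs.

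Among all 11852 other genes, the 4 with the highest correlation to Hspa1b were the members Hsph1, Hspb1, Dnajb1 and Hspa8. The first 6 of Hsph1 and the first 5 of Dnajb1 were members as well. Among the CCT genes, Cct2 and Cct6a were at 0.62 and Cct6a and Cct8 at 0.50, while Cct2 with Cct8 was at 0.28. With Hspa1b, Hsph1, Hspb1 and Dnajb1 these CCT genes had values of -0.25 to 0.18, and with Hspe1 values of 0.36 for Cct8, 0.32 for Cct6a and 0.15 for Cct2. The ER gene Hspa5 went with Hsp90aa1 (0.56) and Cct6a (0.52). Values of one array share its isolation and its amplification. The score of myofibre markers, 7 of 10 above the limit on low signal, correlated with Hspb1 at -0.53, with Hsph1 at -0.45 and with Dnajb1 at -0.41. That score ranged from 4.84 to 7.46 in aged CR, 4.94 to 7.99 in aged control, 5.28 to 7.90 in adult CR and 4.84 to 8.73 in adult control arrays, and none of its markers was called in a diet or age comparison. With the myofibre score as a covariate, the 5 aged diet calls passed. The part of these markers in the correlations was not tested.

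**Figure D5:**
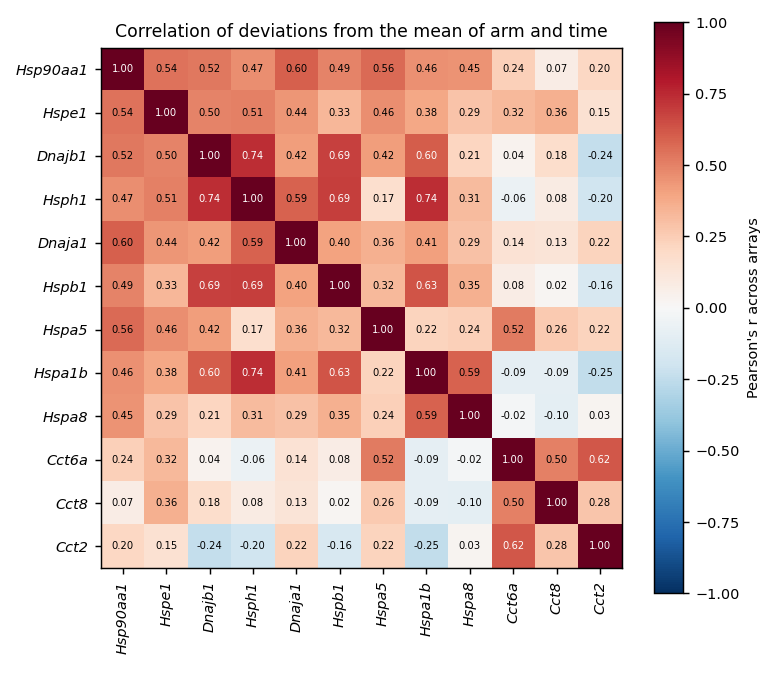
Pearson's r between 12 members, computed over 103 arrays from deviations from the mean of arm and time; rows and columns are genes and colour is r. Dnajb1, Hsph1, Hspb1 and Hspa1b have values of 0.60 to 0.74 with each other, and Cct2, Cct6a and Cct8 have values of -0.25 to 0.18 with these 4.

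Related genes outside the members gave few level calls. Of 20 ER folding and unfolded protein response genes, 1 was lower under CR in aged mice, the secreted ER stress protein Manf (-0.25 ± 0.07, SE; limma adjusted p = 0.02), and 0 in adult mice. Of 10 measured further targets of heat shock factors, Cryab, the small heat shock protein alphaB-crystallin, was lower in aged mice (-0.27 ± 0.07, 0.029). None of 18 Hsp90 and Hsp70 co-chaperones or of 9 prefoldin and CCT partners was called in a diet or age comparison of levels. Rhythms were called for 6 of 20 ER genes in aged CR, 2 in aged control, 6 in adult CR and 5 in adult control, where 16.5%, 10.8%, 22.4% and 10.6% of all genes were called in the same order of arms. These shares are also the background of the counts that follow. Their hours were spread: Calr, the lectin chaperone calreticulin, peaked at 20.1 ± 1.1 h and the protein disulphide isomerase gene Pdia3 at 15.5 ± 1.0 h in aged CR, and Pdia6 at 19.8 ± 1.1 h and Pdia4 at 21.1 ± 1.1 h in adult CR. Fkbp5, an Hsp90 co-chaperone induced by glucocorticoids, peaked between 10.1 and 10.7 h in aged CR, adult CR and adult control. The cold-inducible Cirbp peaked at 0.16 ± 0.94 h in aged CR (limma adjusted p = 0.0037), with 0.40 ± 0.09 as its amplitude. Clock genes were called in 12 to 14 of 15 in each arm, and 11 measured genes induced by glucocorticoids in 7, 3, 9 and 6 in the order aged CR, aged control, adult CR and adult control. Of 17 immediate early genes, 1, 1, 4 and 2 were rhythmic in that order, and 0 differed in level.

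Of the members of highest mean in their class, Hspb1, Hsp90b1, Bag6, Dnajb1 and Hspe1 are described above. Hsf2, the heat shock factor with a probe set, stayed below the limit on low signal, at 3.65 ± 0.19 in aged CR, 3.58 ± 0.14 in aged control, 3.61 ± 0.17 in adult CR and 3.62 ± 0.21 in adult control (SD). Hspa8 lay between 11.36 and 11.74 on every array, and Cct7 averaged 10.40, 10.41, 10.39 and 10.34 in the same order of arms. Dnaja1 averaged 9.96, 9.92, 9.98 and 9.85.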

How the data were processed

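RNA of 104 mouse muscle stem cell samples was hybridised to expression arrays. The authors deposited values made by RMA (per the submitters' processing notes, version not stated). The log2 base is inferred from the deposited values (1.19 to 12.8), since no header states it. RMA corrects background, equalises the arrays' distributions and compresses differences of dim genes. No source used here says whether batches were corrected. Probe sets were named by the platform annotation: 28898 of 45141 had 1 symbol, 551 had several and 15692 none. Probe sets whose mean fell below the 40th percentile (log2 4.50) were dropped, and the brightest one of each gene was used.

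One limma fit (version 3.58.1, R 4.3.3) took all arrays, with a day mean and a 24 h cosine and sine per arm, and tested by moderated tests with Benjamini-Hochberg adjustment over 11853 genes at 5%. The tests were tried on simulated data first. Arrays have no read depth, so their number limits the precision. The p-values measure the spread between arrays called biological replicates. Both diets use the same replicate numbers, but nothing in the labels ties same-numbered mice together, and they were not paired. An omission of a replicate number leaves out all arrays of that number in an arm. Alternatives were no filter on dim probe sets, the mean of a gene's probe sets, separate fits, time as 6 levels, no T20 arrays, array weights, quantile normalization, the first residual principal component, a replicate block and these omissions. Covariates for 4 cell type scores (mean log2 of the markers above the limit on low signal) were a later choice, made once the data had been seen.

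Members and lists were chosen with earlier results of these data known. Named were the classical chaperones of each class, up to 8 called members of smallest p in each comparison and direction, the brightest member of each class, up to 4 called genes of each related list and the brightest markers; other names are members given to complete a count. Promoter sequences are RefSeq's (GRCm38.p6), and all 82 members matched RefSeq by Entrez number. Some items are not reported here.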

Additional observations from a re-analysis of the deposited data

Results flagged for a closer look

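The rhythm of Hsp90b1 differed between aged CR and aged control cells by a test of the difference itself, with a limma adjusted p of 0.025. The aged CR curve peaked at 19.97 h and the aged control curve, which was not itself called rhythmic, at 2.61 h. This difference was lost in 5 of 9 omissions of a replicate number and in 4 of 13 other settings. Without T20 its limma adjusted p was 0.31, and the other probe set gave 0.23.

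Of 92 groups of 4 to 6 arrays tested for Hsp90b1, Hspa12a, Hspb7 and Cct6a, 6 held an array far from the others, and chance alone flags about 1 group in 20. For Hsp90b1, adult CR at T16 had 1 array at 10.35 with the others between 10.04 and 10.11, and aged control at T20 had 1 at 10.05 with the others between 10.23 and 10.25. For Hspa12a, adult control at T12 had 1 array at 7.54 with the others between 7.97 and 8.01. For Hspb7, aged control had 1 array at 4.69 at T0 (others 5.16 to 5.24) and 1 at 5.56 at T20 (others 5.08 to 5.15), and adult control had 1 at 6.24 at T12 (others 4.89 to 5.05). No cause of these was tested.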

How the results depend on the processing

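Of 53 named member results, 11 kept their call in every setting and omission, 207 of 1006 reruns lost a call and 0 reversed its direction. The cause of the changes was not tested. The count of members rhythmic in aged CR, 17, became 11 with the mean of a gene's probe sets and 11 without T20. That of aged control, 9, became 3 in separate fits, 4 without T20 and 4 with the Schwann cell score. That of adult control, 4, became 2 in separate fits and 2 with the Schwann cell score. The 5 aged diet level calls became 3 without T20 and 1 with the fibroadipogenic progenitor score. The 2 adult ones became 1 with no filter, with time as 6 levels, without T20, and with the myofibre or the Schwann cell score, and 0 with the fibroadipogenic progenitor score. The 2 calls between aged CR and adult CR became 4 with the mean of probe sets, 0 with the pericyte score and 1 with the Schwann cell score. The 1 aged rhythm difference became 0 with the mean of probe sets, in separate fits, without T20 and after quantile normalization, and 4 with time as 6 levels. Omissions of a replicate number gave 12 to 14 rhythmic members in aged CR, 1 to 5 in aged control, 10 to 14 in adult CR and 0 to 4 in adult control, and 1 to 5, 0 to 3 and 1 to 2 level calls in the aged diet, adult diet and CR age comparisons. The aged rhythm difference gave 0 to 1, and the other comparisons 0 in each.

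Deviations of same-numbered arrays of the 2 diets correlated little: over 45 pairs the median correlation was 0.035 (from -0.23 to 0.29), and 10 were above 0.1. Of these arrays 15 correlated best with their own number, and how many would do so by chance was not worked out. With a replicate block (consensus correlation 0.0491) 17, 9, 14 and 4 members were rhythmic in aged CR, aged control, adult CR and adult control, and the counts of level and rhythm differences were as without it.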
